A study of Mus musculus with 2 samples.

Results

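Among 8 genes grouped as oocyte transcription factors of follicle formation, Lhx8, Taf4b and Tbpl2 were overlapped by ELAVL2 pulldown peaks from newborn mouse ovary. Figla, Nobox, Sohlh1, Sohlh2 and Pou5f1 were not. The 8 genes were given by name and were looked up by symbol in the authors' deposited gene table, which pairs each peak with the genes it overlaps or lies nearest to and holds 11969 genes. The 8 symbols matched 39 of its 43554 distinct rows, of which 30 overlapped a member and 9 lay upstream of one. The study compared 1 ELAVL2 RIP sample with 1 input sample. RNA immunoprecipitation and sequencing (RIP-seq) recovers the RNA that comes down with a protein. Here lysate of 100 ovaries from mice at postnatal day 0 (P0) met beads carrying 5 ug of an antibody to ELAVL2, a neuronal and germ cell RNA-binding protein of the Hu family, and 5% of the cleared lysate served as input. Both samples were whole P0 ovary with no genetic change or treatment named in the labels, and a pulldown with a control antibody was not analysed here. The strain and the number of animals behind the pooled ovaries are not given in the sources used here. The RIP kept 13787676 tags and the input 19479946 after copies at 1 position and strand were removed. There were no replicates, so variation between pulldowns, libraries or pools of ovaries was not measured. The intervals below cover counting error only.

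Around birth, mouse oocytes leave their germ cell nests and are enclosed by pregranulosa cells as primordial follicles. SOHLH1 and SOHLH2, basic helix-loop-helix factors, act early in this programme, upstream of the LIM-homeobox factor LHX8 and of NOBOX, an oocyte homeobox factor. FIGLA, also a basic helix-loop-helix protein, is needed for follicles to form and for the zona pellucida genes. TAF4B, a germ cell form of a TFIID subunit, and TBPL2, which takes the place of the TATA-binding protein in oocytes, belong to the general transcription machinery. POU5F1 (OCT4) is the pluripotency factor of early germ cells. ELAVL proteins bind U-rich stretches of transcripts, often in introns and 3' untranslated regions, and can affect the splicing, stability and translation of the RNA.

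Peaks overlapped 3 of the 8 genes (37.5%). Of 21896 protein-coding genes in the reference table, 23.4% were overlapped by a peak, so with only 8 genes the share is near this background and is no result about the group. Counting peaks outside genes as well, Pou5f1 joined the others to give 4 of 8, against 31.8% of protein-coding genes. The genes without a peak were mostly the short ones. Figla spans 4.50 kb, Nobox 6.40 kb, Sohlh1 4.25 kb and Pou5f1 4.75 kb, and among protein-coding genes up to 10 kb long 7.65% were overlapped by a peak. Taf4b, the longest member at 177 kb, falls in the class over 50 kb, where 48% were. Lhx8 (24.3 kb), Tbpl2 (25.2 kb) and Sohlh2 (27.9 kb) are of like length, and in protein-coding genes of 20 to 30 kb the share was 24.7%. Within this size class the members ranged from none in Sohlh2 to 4 peaks in Tbpl2 and 15 in Lhx8. In that class 8.92% of genes had 4 or more peaks and 0.355% (9 of 2533, Lhx8 among them) had 15 or more. Lhx8 shared its count with 3 other genes of the class, and 5 had more. Its count depended on how peaks were taken: it was 7 at a fold of at least 3, and 9 when peaks within 500 bp were merged. Taf4b held 11 peaks, a number reached by 4.89% of genes over 50 kb. Of these, 6 overlap a noncoding gene inside Taf4b, leaving 5 without them, and 4 were paired with Taf4b alone.

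**Figure D1:**
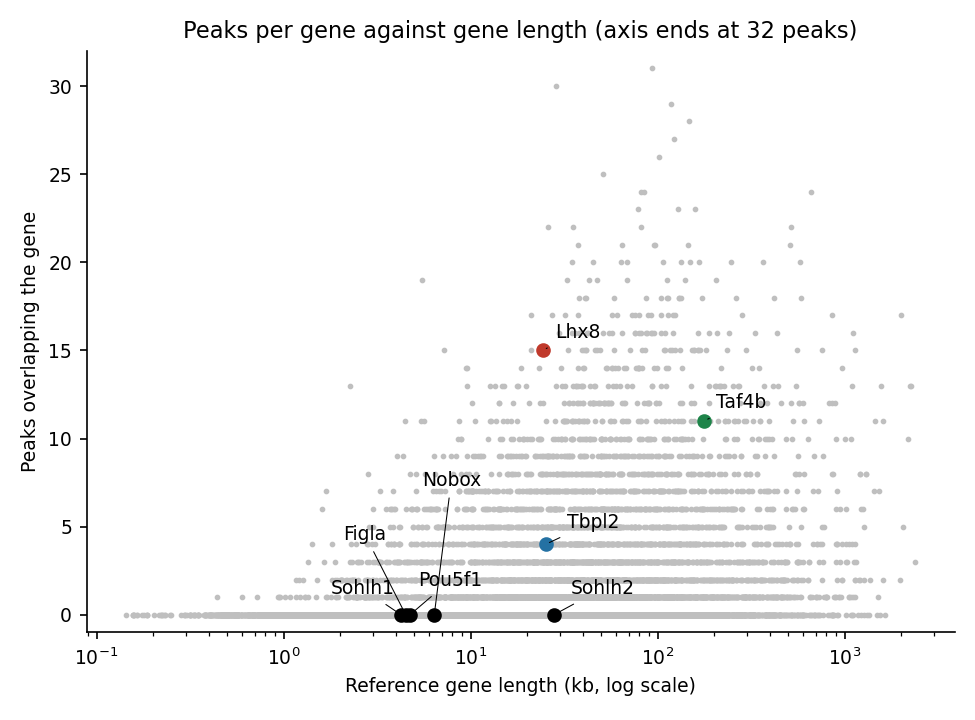
Number of ELAVL2 RIP peaks overlapping each protein-coding gene (vertical axis) against its length in the reference table (horizontal axis, kb, log scale); grey points are protein-coding genes, 6 of which lie above the end of the axis at 32 peaks, and the 8 members are labelled. Lhx8 with 15 peaks lies above most genes of its length, while Sohlh2, of like length, has none.

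Lhx8, which encodes a LIM-homeodomain factor that oocytes need to survive and grow past the nest stage, had by far the most peaks per length of the members. Its body in the gene table (ENSMUSG00000096225, chromosome 3, 154306294 to 154330659, minus strand, mm10) held 15 peaks, or 6.16 per 10 kb, which covered 9.25% of it. All 15 were paired with no other gene, and no other gene of the reference table overlaps Lhx8. For each peak the authors' fold enrichment divides the RIP pileup (overlapping tags at the summit) by the input around it, scaled to the depth of the RIP, after 1 is added to each, so the input level can be solved from it. At 13 of the 15 peaks that level was a whole number of input tags, within 0.01, as a count of tags at the summit would be, against 74.4% of all peaks.

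The highest RIP pileups in Lhx8 lay at its 3' end. The peak at 154306323 to 154306678, with its summit 343 bp from the annotated end, had a RIP pileup of 64 against 35 input tags, equal to 24.8 after scaling. Its fold was 2.52, its ratio without the pseudocount 2.58 (exact 95% interval 1.69 to 4.02) and its -log10 q 6.86. Such intervals cover the counting of tags only, and since summits and peaks were picked for a high pileup, a lower bound above 1 is no finding. With 1 tag kept per position and strand, a pileup could not exceed 100 tags. Whether this limit lowered the ratios at high pileups was not tested. The neighbouring peaks had 55 tags against 38 (fold 2.01) and 51 against 34 (fold 2.07). These 3 peaks had the highest pileups of any member peak and, with 1 other peak in the middle of the gene, the lowest folds in Lhx8.

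From 1358 to 2418 bp before that end, 4 more peaks had lower input and higher folds. The peak at 154308383 to 154308613 had 17 RIP tags against an input level of 3.85 tags and the largest fold in Lhx8, 4.83. Its neighbour at 154308693 to 154308779 had 17 tags against 3.95, a fold of 4.74. The remaining 8 peaks were spread over the upstream part of the body. They ranged from a fold of 2.19 (43 tags against 27.0) to 3.87 (33 tags against 11), the latter 2.27 kb from the annotated start with the largest -log10 q of the gene, 7.34. Peaks thus lay along most of the length of the gene but covered little of it, with 17 to 64 RIP tags and folds of 2.01 to 4.83. At a pileup of 20 or more, 11 peaks remained and the best fold was 3.87.

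Taf4b held 11 peaks in its body of the gene table (ENSMUSG00000054321, chromosome 18, 14783245 to 14900359, plus strand), or 0.939 per 10 kb. Of these, 4 were scattered through the gene and 7 lay together within 2303 bp of the end given by that table. The scattered peaks had summits 38.3, 58.7, 76.0 and 94.8 kb from the start, and were paired with no other gene. Their RIP pileups were 20, 21, 20 and 8, against input levels of 4, 6, 10 and 0.521 tags. Their folds were 5.48, 4.19, 2.60 and 6.58 in that order. The last value, the largest of Taf4b, rested on 8 tags over the genome-wide background, the lowest input level the caller allows. The peak at 14821492 to 14821550, with 20 tags against 4, had a ratio without pseudocount of 7.06 (2.37 to 28.4) and a -log10 q of 7.30.

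The 7 clustered peaks, from 14898007 to 14899427, had 26 to 44 RIP tags against 9.70 to 23 input tags and folds of 2.31 to 3.43. The largest -log10 q of Taf4b, 7.60, was at the last of them, with 44 tags against 18 (fold 3.28, ratio 3.45, 1.96 to 6.35). In the reference table Taf4b runs 60065 bp further, to 14960424, and no peak lay in that added part. The same table places the long noncoding RNA gene 4930543D07Rik at 14894092 to 14899364, inside Taf4b, where 6 of the 7 clustered peaks overlap it. It has no row in the authors' deposited gene table. The called peaks carry no strand, so tags of the 2 transcripts cannot be told apart there. Without the peaks over 4930543D07Rik, 5 peaks of Taf4b were left and its best fold was the same. In all, 3 genes of the reference table overlap Taf4b. Whether those other than 4930543D07Rik cover any of its peaks was not examined here.

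A further 8 peaks were paired with Taf4b from upstream. Of these, 3 lay in the neighbouring gene Psma8, which encodes a germ cell subunit of the proteasome, with 23 to 45 RIP tags and folds of 3.96 to 7.68. The other 5 lay between the genes, 331 to 9938 bp past the annotated end of Psma8 and at least 10781 bp before Taf4b. They had 9 to 19 tags against 1 to 5 input tags and folds of 2.86 to 6.40. Which transcript these 5 belong to cannot be read from the files, and they enter no count of Taf4b.

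Tbpl2, the TBP-related factor of growing oocytes, held 4 peaks (ENSMUSG00000061809, chromosome 2, 24071721 to 24096595, minus strand), and 1 of them had the largest deposited fold of any member. The peak at 24090276 to 24090563, 6.11 kb from the start, had 17 RIP tags against an input level of 1.31 tags and a fold of 9.36, with 11.9 for its -log10 q. Its fold lay above 98.7% of all 28332 peaks. The other peaks had 33 tags against 16 (fold 2.76), 29 against 10 (fold 3.71) and, 116 bp from the annotated 3' end, 36 against 12 (fold 3.90, ratio 4.24, 2.16 to 8.95). At a pileup of 20 or more the best fold of Tbpl2 was therefore 3.90 and not 9.36, below the 5.48 of Taf4b. Without the pseudocount the order also turned, with a best ratio of 18.4 in Tbpl2 and 21.7 in Taf4b, the latter from 8 tags over the genome-wide background. The reference table ends Tbpl2 355 bp further on, at 24071366, and 2 more peaks lie in that stretch. Their summits were 115 and 238 bp past the end in the gene table, which pairs them with the neighbouring gene Hnmt. Hnmt lies 22392 bp from the 3'-terminal peak of Tbpl2, which is paired with both genes. The 2 further peaks had 33 tags against 10 (fold 4.21, interval of the ratio 2.24 to 10.6) and 20 against 7.30 (fold 3.41). By the reference body, Tbpl2 thus held 6 peaks, of which 3 lie close together at the right of its row on the map of peaks along the genes.

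**Figure D2:**
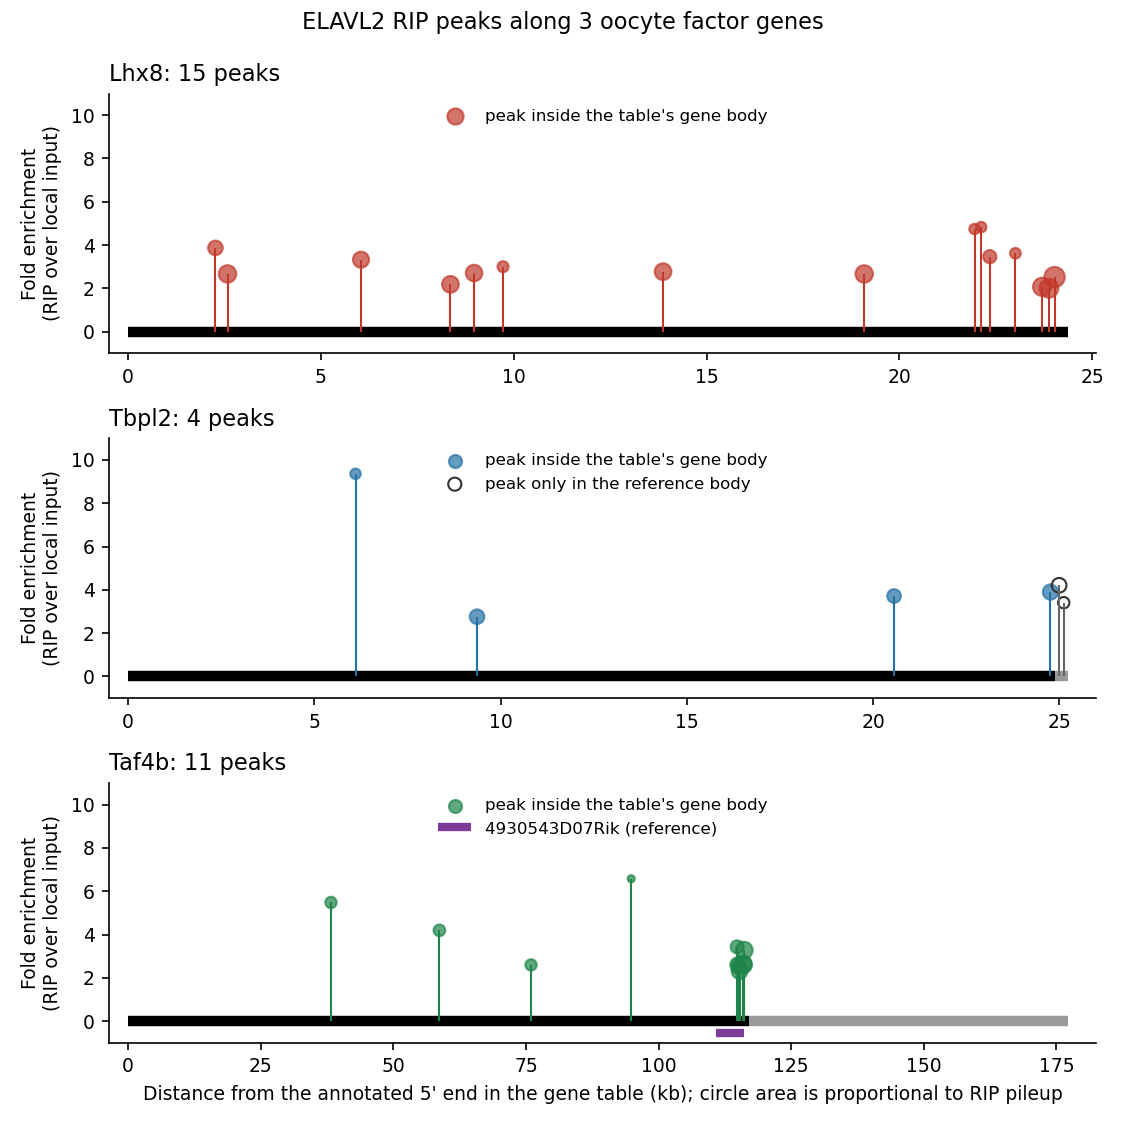
Peaks along Lhx8, Tbpl2 and Taf4b: distance of each summit from the annotated 5' end (horizontal axis, kb) against the authors' fold enrichment (vertical axis), with circle area proportional to RIP pileup. Black bars are gene bodies in the gene table, grey bars their extension in the reference, open circles the 2 peaks in the extension of Tbpl2, and the purple bar 4930543D07Rik; Lhx8 peaks run along the whole body while 7 of 11 Taf4b peaks crowd near the end of the black bar.

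No peak was called in the other 5 genes, under either annotation. The nearest peak to Figla (chromosome 6, 86016494 to 86020996, in the reference table, whose assembly GRCm38.p6 has the coordinates of mm10) was 70177 bp away, and that to Nobox (chromosome 6, 43303674 to 43310072) 129821 bp away. For Sohlh1 (chromosome 2, 25842995 to 25847248) and Sohlh2 (chromosome 3, 55182044 to 55209957) the distances were 119339 and 44913 bp. These peaks were paired with other genes. Pou5f1 (ENSMUSG00000024406, chromosome 17, 35506018 to 35510772) was paired with 1 peak 11733 bp upstream, of 9 tags against 3 with a fold of 3.20. Its -log10 q was 1.39, the list being cut at a q of 0.05. A missing peak is not a missing transcript, since the files hold no tags outside peaks and give no input level for these genes. The lowest fold called depended on that level: 3.51 among peaks at 1 input tag, 2.48 at 10, 1.95 at 24 and 1.76 at 38. Enrichment below these values would not have been called, and it was not detectable at this depth. The 300 bp windows around the annotated starts, available for 7 of the members, held 0 peaks.

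Compared with all peaks, the 30 in members, pooled, had high input and modest folds. Their median pileup was 33 against 24 over all peaks, their median input level 16 tags against 8, and their median fold 2.89 against 3.59. By gene, the median fold was 2.77 in Lhx8 and 2.66 in Taf4b but 3.81 in Tbpl2, above that of all peaks. In whole ovary, the input level of an oocyte transcript mixes the share of oocytes with RNA per cell, and fewer cells and less RNA per cell cannot be told apart. A pileup of 20 or more was reached by 24 of the 30 member peaks, against 58.3% of all peaks. Folds at different input levels are not comparable, because a high input lowers the largest fold seen: among peaks at 1 input tag folds reached 18.7, and among peaks at 38 tags 2.55. All peaks were therefore ranked by input level and split into 10 classes of about equal size, and each member peak was set beside its own class. In 23 of 30 cases its fold was above the class median, against 48.2% of all peaks: 12 of 15 in Lhx8, 8 of 11 in Taf4b and 3 of 4 in Tbpl2. Peaks of a gene are no replicates, and 6 of the 11 in Taf4b also overlap 4930543D07Rik, so this is a description.

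By this ranking the order of the peaks changed. The 3'-terminal Lhx8 peak with 64 tags, below most peaks by fold alone (percentile 23.2), was at percentile 94.1 among peaks of like input. The last clustered peak of Taf4b moved from 43.2 to 91.2 and the 3'-terminal peak of Tbpl2 from 55.8 to 93.2. The Tbpl2 peak with a fold of 9.36 stayed high, at 97.6. The lowest of the members was the Taf4b peak 76.0 kb from the start, at 6.07, and the Taf4b peak at the genome-wide background was at 64.1. In the plot of pileup against input, a high percentile places a peak towards the upper edge of the grey points above the same input level.

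**Figure D3:**
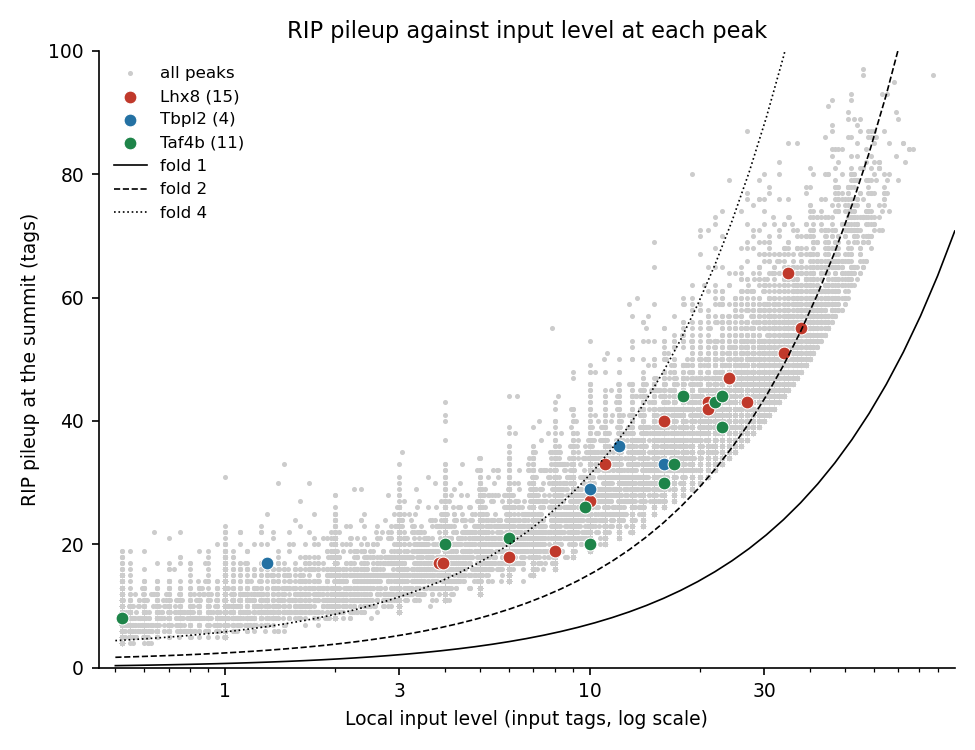
RIP pileup at the summit (vertical axis, tags) against local input level (horizontal axis, input tags before scaling, log scale) for all 28332 peaks in grey and the 30 peaks in Lhx8, Tbpl2 and Taf4b in colour. Black lines mark folds of 1, 2 and 4 with the caller's pseudocount; Lhx8 peaks reach the highest input among members, 38 tags, and lie near or above a fold of 2.

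Along the gene, 15 of the 30 member summits (50%) lay in the last 10% of the body in the gene table. Over all 19371 peaks in exactly 1 gene the share was 46.6%, near that of the members. Peaks of a gene are no replicates and many of these lay close together, so no interval is given. With peaks within 500 bp merged, 5 of 19 lay there, and the share of all peaks after merging is not given here. The count was 7 of 15 in Lhx8, 7 of 11 in Taf4b and 1 of 4 in Tbpl2. It depended on the annotated end. By the reference bodies it was 7 of 15 in Lhx8, 0 of 11 in Taf4b and 3 of 6 in Tbpl2, because Taf4b ends further on there. Exons were not used here, so whether peaks inside the genes fall in introns was not tested.

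The partners of these factors, the genes they act on and other regulators gave context, from lists drawn up with earlier results of these data known. Of 25 partners and relatives, 21 were overlapped by a peak (84%), against 23.4% of all protein-coding genes. The 21 had a median best fold of 3.49, against 4.38 over all overlapped protein-coding genes. Input levels of these best peaks were not matched, so this median and those of the lists below cannot be ranked. The 3 largest best folds were in Ldb2, which encodes a cofactor of LIM-homeodomain proteins (8.20, from 13 tags), Gtf2a1l, a germ cell subunit of TFIIA (7.72, from 16 tags), and Ybx2, which encodes a Y-box protein that stores mRNA in germ cells (6.53, from 24 tags against 4). Only Ybx2 kept its value at a pileup of 20 or more, where Ldb2 and Gtf2a1l had no peak. All E-protein genes listed, which encode dimer partners of FIGLA, held peaks: Tcf3 4 (best fold 4.55), Tcf4 10 (3.08) and Tcf12 3 (3.69). Among close relatives of the members, Taf4 held 1 peak (3.49), Tbp 2 (4.38) and Tbpl1 3 (3.22). Of the LIM-homeobox genes listed, Lmx1a held 1 (5.86, from 9 tags against 1), while Lhx2 and Lhx9 held none. From peaks paired with exactly 1 gene, 11 of the 25 were left, with no share of all protein-coding genes to set beside it. This filter also drops peaks whose other paired gene is not overlapped.

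Of 27 genes listed as acting downstream of FIGLA, NOBOX, LHX8 or SOHLH1, 10 were overlapped (37.0%), against 23.4% of all protein-coding genes. The 10 had a median best fold of 5.25. They included Kit, the oocyte receptor for KIT ligand (10.2, from 13 tags at the genome-wide background, and 2.05 at a pileup of 20 or more), Fmn2, an actin nucleator of meiotic spindle positioning (7.45, and 4.02 at that pileup), and Rfpl4, an oocyte RING finger gene (5.85, from 51 tags). Bmp15, the oocyte growth factor gene, held 5 peaks, and its best fold was 5.13. The zona pellucida genes Zp1, Zp2 and Zp3 and the growth factor gene Gdf9 held none. A further 6 genes were paired only with peaks outside them, Zar1 with 1 peak 691 bp away. The 27 listed genes have a median length of 8.52 kb, and the longest, Fmn2, spans 321 kb.

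Of 24 pluripotency and germ cell factor genes 12 were overlapped (50%), against 23.4% of all protein-coding genes. The 12 had a median best fold of 6.11. Mybl1, which encodes a germ cell MYB factor, reached 10.5 (17 tags against 1) and 5.74 at a pileup of 20 or more. Pou2f1, a relative of Pou5f1, held 11 peaks and reached 7.68 from 23 tags against 3. Dmrt1, a sex determination and germ cell factor gene, held 3, the best at 7.61 from 12 tags, and none at a pileup of 20 or more. Gcna was not found in the reference table and had no row. Sox2 held 1 peak with 7 tags, which overlapped another gene as well, and Nanog none. From peaks paired with exactly 1 gene, 5 of the 24 were left, with no share of all protein-coding genes to set beside it. This also drops peaks whose other paired gene is not overlapped, such as the best peaks of Pou2f1 and Dmrt1.

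Of 20 transcription factor genes of somatic ovary cells 2 were overlapped (10%), against 23.4% of all protein-coding genes. They were Bach2 (7.04, from 16 tags, and 2.17 at a pileup of 20 or more) and Maf (4.88, from 35 tags against 9). The best peak of each overlapped 2 genes. Foxl2, Wt1, Gata4 and Nr5a1, which define granulosa and other somatic lineages, held none. From peaks paired with exactly 1 gene none of the 20 was left. No share of all protein-coding genes is given here for such peaks, in this or the other lists. With peaks outside genes 6 of the 20 were paired, much like the 31.8% of all protein-coding genes. These counts describe the lists, which differ in gene length and, to an extent not analysed here, in expression.

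**Figure D4:**
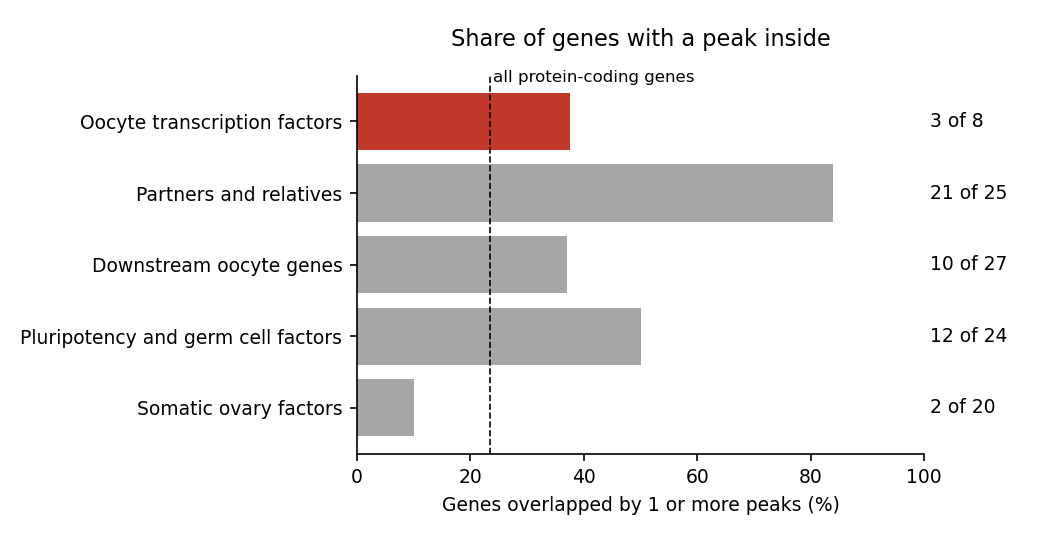
Share of genes with 1 or more peaks inside (horizontal axis, %) for the 8 oocyte transcription factors in red and 4 other lists in grey, with counts at the right; the dashed line is the share of all protein-coding genes, 23.4%. The partner list stands highest at 21 of 25 and the somatic list lowest at 2 of 20.

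Markers of the cells in the ovary were checked in the same way, beside the 23.4% of all protein-coding genes. Of 8 oocyte and germ cell markers 4 held a peak: Dazl 12, Dppa3 5, Kit 4 and Ddx4 1. Zp3, Gdf9, Nobox and Figla held none. Nobox and Figla are members, and Kit, Dppa3, Zp3 and Gdf9 are in the list of downstream genes, so only Dazl and Ddx4 were not counted above. Of 19 markers of pregranulosa, stromal, endothelial, erythroid and immune cells only Tek, with 1 peak, was overlapped. Foxl2, Nr2f2 and Tcf21 among them are also in the list of somatic factors. Of 4 neuronal markers, Tubb3, Map2 and Snap25 held 3, 7 and 2. The best peak of Tubb3 overlapped 2 genes. Elavl2 itself, the gene of the antibody's target, held 13 and its best fold was 6.62.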

How the data were processed

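The comparison of 1 RIP and 1 input sample, each without a replicate, was used. Per the submitters' processing notes, TopHat2 2.0.8b and MACS2 2.1.0.20140616 were run, and mm10 is named there. Lanes of a sample (3 each) were pooled by the authors, per the file headers, who kept 1 tag per position and strand (7.98% of RIP and 9.26% of input tags), extended tags to 50 bp and called peaks at a q of 0.05, without a shift model. Pileup is a signal deposited by the authors, and it cannot exceed 100 tags. Fold enrichment is the authors' ratio with a pseudocount of 1. The -log10 p and -log10 q were deposited by the authors. Distances (a score column) are as in the deposited gene table, and the sources used here do not say how it was made.

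Exact repeats (42176 of 85730 rows) were dropped. Input levels were solved from pileup and fold and divided by the scaling factor of 0.708 to give tags. They are the highest of the summit, 1000 bp, 10000 bp and genome-wide estimates. Ratio intervals are exact binomial. The caller takes no account of splicing or strand. The gene members and lists were chosen with earlier results of these data known. Genes named are the 8 members, Elavl2, genes sharing a row with a member (Gm6304 lies at least 111819 bp from the Taf4b peaks it shares) and the 3 largest best folds of each list. Other list genes were named after their values were seen. Scripts were tested on simulated data. Peak sequences were not analysed here. Computation used scipy 1.17.1, pandas 2.3.3 and numpy 2.4.6 under Python 3.11.15, with figures by matplotlib 3.10.9. Alternatives were stricter folds, pileups and q, merged peaks, peaks paired with 1 gene, all pairings, reference bodies and no pseudocount.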

Additional observations from a re-analysis of the deposited data

How the results depend on the processing

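Of 60 recomputed values of the main counts, 47 stayed within 1.5 times the reported ones and 13 moved further. The number of overlapped members was 3 under every alternative except pairing with outside peaks, which gave 4. With a fold of at least 3, 15 member peaks and 7 summits in the last 10% of a gene were left. Merging peaks within 500 bp left 19 and 5. From peaks paired with exactly 1 gene, 7 such summits, 11 partner, 5 pluripotency and germ cell and 0 somatic genes were left. No share of all protein-coding genes is given for such peaks. With all paired rows, 16 of 27 target and 6 of 20 somatic genes were counted, against 31.8% of all protein-coding genes. The median best fold of the 3 genes, 6.58, was 3.90 at a pileup of at least 20 and 18.4 without the pseudocount, where low input weighs more. Without peaks over 4930543D07Rik, an alternative chosen after seeing the data, 9 summits lay there. No paired analysis was possible because each group holds 1 sample. A peak was called from 5 RIP tags or more at 1 input tag and from 48 at 38 tags, so weaker enrichment was beyond this depth.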

Other observations

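Outside the members, genes of TFIIA, the general factor that works with TBPL2, are given here after their values were seen. Gtf2a1, which encodes the large subunits of TFIIA, held 22 peaks in its body of the gene table and 24 in its reference body of 35.2 kb. No share of genes of like length with as many peaks is given here, nor its count with nearby peaks merged. Its best fold was 5.16, from 48 RIP tags against 12 input tags. Gtf2a2, the small subunit gene, held 5 with a best fold of 3.15.

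Among short oocyte genes, Ooep and Dppa3 held several peaks, where most genes of their length held none. Ooep, a maternal factor gene of 1.69 kb, held 7 peaks with a best fold of 4.96 (25 tags against 6), 5 of them within its reference body. Dppa3, a maternal factor gene of 3.85 kb, held 5, but with folds of at most 1.94 at 49 tags against 35. Both were chosen after their values were seen.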
